A study of Homo sapiens with 3 samples.

Results

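Non-clustered cadherins and synaptic adhesion genes were examined for trimethylation of lysine 9 on histone H3 (H3K9me3) in Jurkat, an established human leukaemia line of the T cell lineage. Members were the genes whose symbols matched a fixed pattern in the authors' region annotation (CDH, PCDH, CNTN, CNTNAP, NRXN, NLGN, LRRTM, SDK, CSMD, MAGI, DLGAP and SORCS genes with a number, together with DPP6, DPP10 and LRP1B). A region in or beside the gene was listed for 40 members, of 7655 gene symbols carried by the regions of the whole series. The pattern was matched by 80 protein-coding genes of a RefSeq gene table, so 50% of them had a region (exact binomial 95% interval 38.6 to 61.4%), against 30.0% of all protein-coding genes. Many members are very long, and neither this share of genes nor the later ones were corrected for gene length. The CXCL12 library came from Jurkat cells kept without serum for 90 min and then exposed for 15 min to 100 ng/ml of CXCL12, the chemokine also called SDF. The control library came from Jurkat cells kept without serum for the same 90 min and left unstimulated. Each group is 1 library of 1 cell line, the input library was not analysed here, and no p-value can be had, so treatment and variation between preparations cannot be told apart. Chromatin from the whole culture was immunoprecipitated, so a domain carried by fewer cells and a weaker domain in every cell cannot be told apart either.

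Classical cadherins are membrane proteins that bind the same cadherin on a neighbouring cell in the presence of calcium and connect through catenins to actin. Neurexins on the presynaptic side bind neuroligins and LRRTM proteins on the postsynaptic side, contactins and their associated CNTNAP proteins join axons to glia and to other neurites, and MAGI and DLGAP proteins are scaffolds beneath the membrane. Many of these genes are among the longest in the human genome and are used mainly in the nervous system. H3K9me3 is a mark of heterochromatin and of silenced genes, and it often forms broad domains of many kilobases.

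The deposited lists held 27178 regions after CXCL12 and 26938 in control, covering 154.4 and 144.4 Mb (hg19). The sources used here give no number of reads, so the depth is unknown and the signal values carry no counting error. Of 9 T cell genes that a T cell line uses, 2 had a region (22.2%), against the 30.0% of all protein-coding genes. PTPRC had 1 region after CXCL12 and 0 in control. CD2 had 2 regions in each library, over 16.6 kb after CXCL12 and 16.8 kb in control, and their mean signal of 20.3 and 18.7 exceeded that of the strongest adhesion locus (16.3 and 17.6).

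The adhesion genes carried 188 regions after CXCL12, 0.692% of all regions of that library, and 179 in control, 0.664%. After CXCL12, 37 members had at least 1 region, in control 36 did, and 33 had one in both libraries. The shares of all genes in each single library were not taken, so these counts have no background. Called regions covered 1223 kb after CXCL12 and 1169 kb in control, a difference of 4.57%. For all regions it was 6.94%, and for regions that carry a gene 6.11%. Over the bins of these regions, the windows of about 33 bp in which the authors give signal, the mean signal was 7.73 after CXCL12 and 7.65 in control. Over all regions it was 6.83 after CXCL12 and 6.75 in control. The median region of the adhesion genes was 4200 bp long in each library, with a mean signal of 5.23 after CXCL12 and 5.12 in control. These values are close to the medians of 5.10 and 5.06 over all regions and of 5.31 and 5.26 over regions that carry a gene. The excess in mean over bins rested on SDK1. Without that gene the mean signal was 6.60 after CXCL12 and 6.48 in control, below the values for all regions and for regions that carry a gene.

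**Figure D1:**
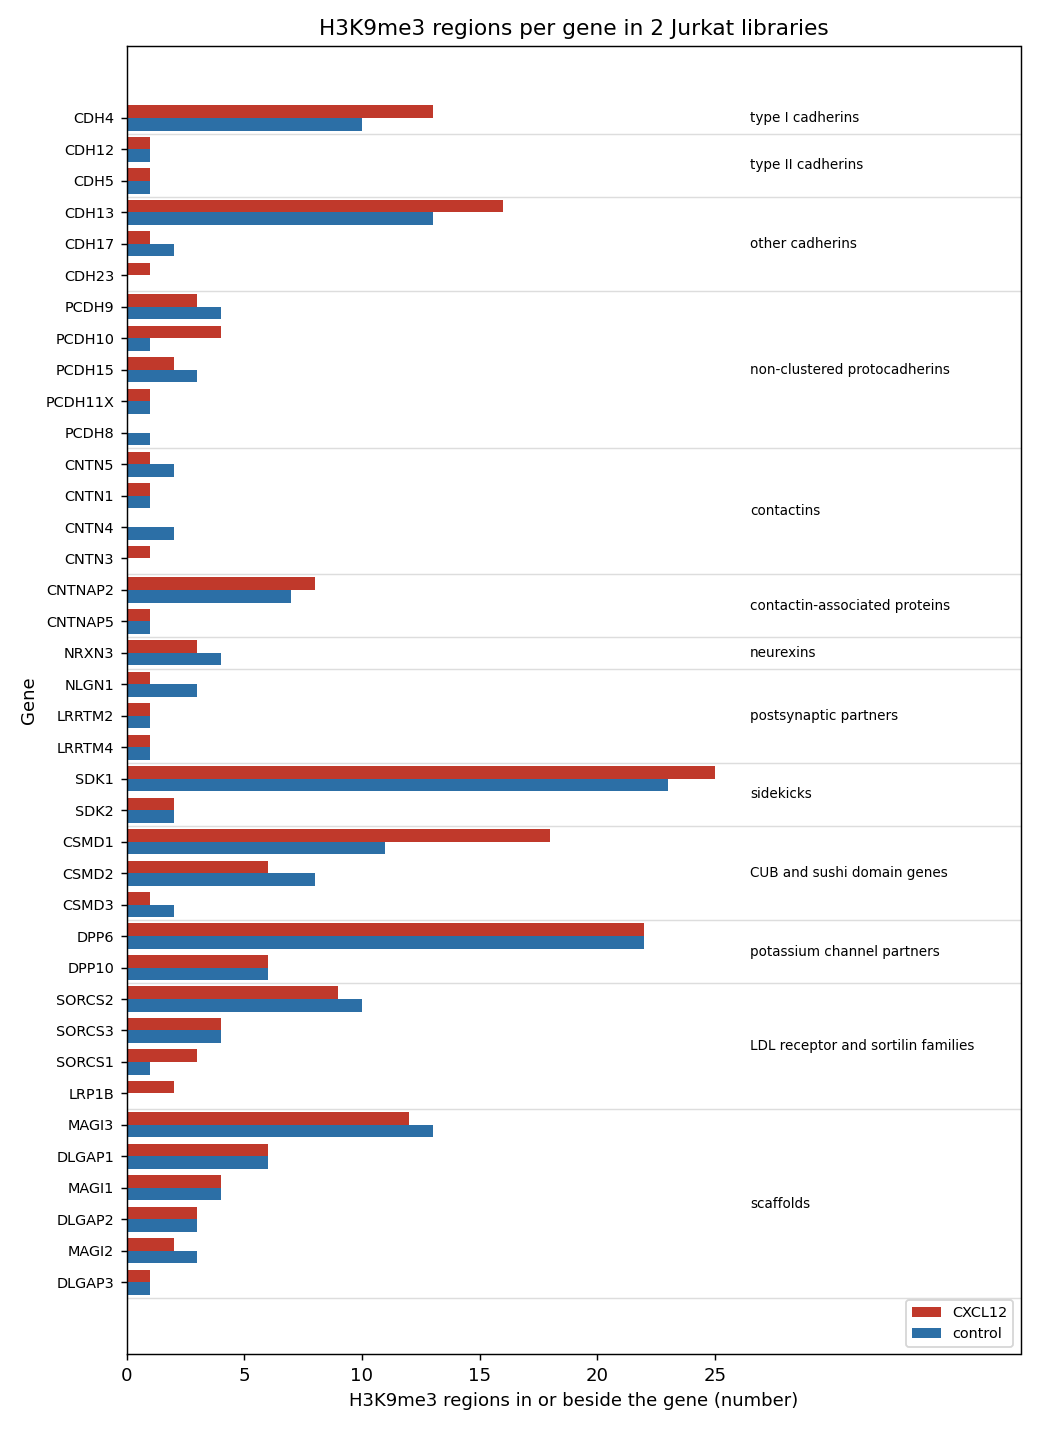
Number of H3K9me3 regions in or beside each gene (x axis), with CXCL12 in red above control in blue, for genes grouped by role and 1 library per bar. SDK1 (25 and 23 regions), DPP6 (22 and 22) and CSMD1 (18 and 11) stand at the top, and 15 of the 40 genes have 1 or 2 regions in all; the gene on chromosome Y and 1 further gene are not drawn.

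The share of genes under the mark is given by family, with no test and no correction for gene length. Over all protein-coding genes it was 30.0%, and the families are too small to be told apart from that share one by one. Both sidekicks, both DPP genes, all 3 CSMD genes and all 4 genes of the LDL receptor and sortilin families had a region, as did 6 of 8 scaffolds. Of the classical cadherins, 1 of 5 type I genes (CDH4) and 2 of 13 type II genes (CDH5 and CDH12) had a region. That of CDH5 lay downstream of the gene in both libraries. No region was listed for CDH1 (E-cadherin) or CDH2 (N-cadherin), the cadherins best known from epithelia and from neurons and mesenchyme. Among the non-clustered protocadherins 5 of 13 had a region, among the contactins 4 of 6 and among the CNTNAP genes 2 of 7. NRXN3 also had one, and of 9 neuroligin and LRRTM genes 4 did, with 1 of these on chromosome Y, counted in the totals and not described further. CNTNAP3, CNTNAP3B and CNTNAP3C have near-identical sequences, and so do PCDH11X and PCDH11Y, so reads from those genes can be misplaced or dropped and their values are uncertain.

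Most regions lay inside the genes and far from the gene starts the authors used. In the gene body were 174 of 188 regions after CXCL12 (92.6%) and 168 of 179 in control (93.9%), with 5 and 3 upstream and 9 and 8 downstream. An in-gene position was common in other genes too, with 9313 gene entries after CXCL12 and 9319 in control. Regions carrying any gene numbered 12238 and 12191. A region can hold several gene entries, so no in-gene share of other genes is given. Measured from the gene start the authors used to the highest point of the region, the median distance inside the gene was 443 kb after CXCL12 and 339.9 kb in control. In genes outside the adhesion group it was 64.4 kb after CXCL12 and 63.2 kb in control. The medians are over different calls in each library. CSMD1, the gene with the largest difference in count, had 18 in-gene regions after CXCL12 and 11 in control, up to 1947 kb from its start. The part of single genes in the difference between the medians was not tested. Beyond 100 kb from the start lay 90.2% of the in-gene regions after CXCL12 and 85.7% in control, against 37.1% and 36.9% for other genes. Many of the adhesion genes are very long, and the distances were not corrected for gene length. The authors' annotation counts promoters and CpG islands in each region but does not separate exons from introns. It put a promoter in 4 regions after CXCL12 (2.13%) and 6 in control (3.35%), against 18% and 18.3% of all regions that carry a gene and 8.10% and 8.29% of all regions. A CpG island lay in 10 regions after CXCL12 (5.32%) and 11 in control (6.15%), against 6.86% and 7.19% of all regions that carry a gene and 4.12% and 4.34% of all regions.

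**Figure D2:**
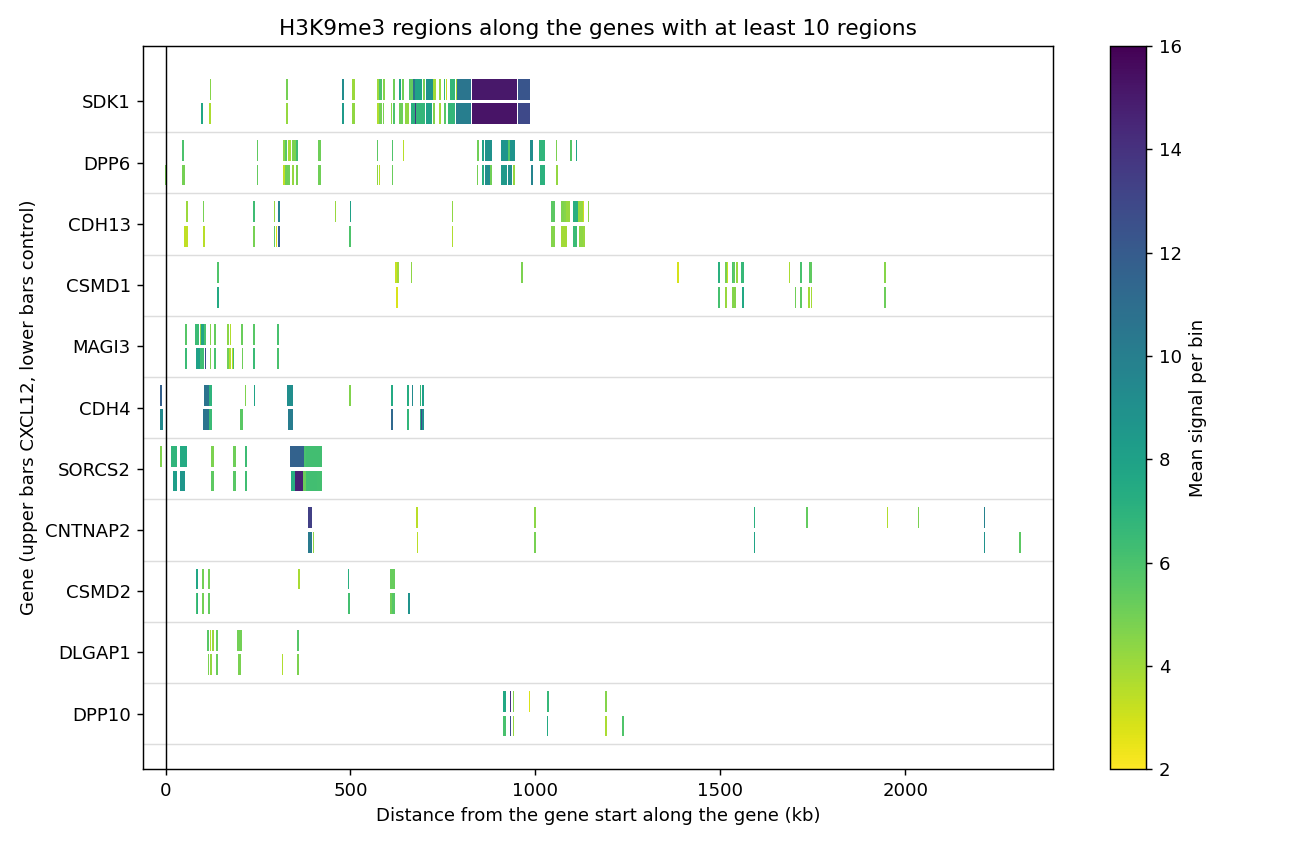
Position of each H3K9me3 region along the 11 genes with at least 10 regions, as distance from the gene start in kb, with CXCL12 bars above control bars and colour for the mean signal per bin; bars shorter than 4 kb are drawn at 4 kb. Many regions were called at the same places in both libraries (20 of 23 loci in SDK1) and others in 1 library (5 of 10 loci were shared in CNTNAP2, 10 of 16 in CSMD1), and the longest and strongest block is the far end of SDK1, 571.7 to 986.3 kb from its start, with signal 10.9 after CXCL12 and 10.6 in control. Distances are from the gene start the authors used, and for DPP6, where they used more than 1, from the first.

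Regions of the adhesion genes reached over a gene start that the authors used at 3 loci. Other starts of these genes were not examined. A locus is a chain of regions of either library that touch by at least 1 bp. PCDH10, a protocadherin known for axon guidance and often methylated in tumours, had one in both libraries, at chr4:134066200-134076799 (hg19). It was 10.6 kb long after CXCL12 and 8.2 kb in control, held 2 CpG islands and 1 promoter, and had the highest mean signal of all shared loci of these genes, 16.3 after CXCL12 and 17.6 in control. Its highest bin stood at 88 after CXCL12 and 58 in control, the opposite order. PCDH8, a protocadherin that acts in synapse remodelling, had its only region in the control library, at chr13:53418600-53423599, with a mean signal of 6.83, a highest bin of 24, 1 CpG island and 1 promoter. DPP6 had a control region across its first start, at chr7:153583600-153587199, with a mean signal of 4.86 and a highest bin of 13. After CXCL12 no region was called at the starts of PCDH8 and DPP6, and because no signal is listed outside called regions, the signal there after CXCL12 is unknown.

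The promoter sequences of PCDH8 and DPP6, where a region over the start was called in control and none after CXCL12, are shown for their content of CG steps. RefSeq windows run from 250 bases before to 50 after a gene's start on GRCh38.p14 and were matched by symbol for 27 of the 40 members. They were not placed on hg19, and for DPP6 the first of 4 listed windows is given. Both are printed 5′ to 3′ on the strand of the gene, PCDH8 from chr13:52848591-52848890 (minus strand) and DPP6 from chr7:153886792-153887091 (plus strand), with every CG step in capitals.
PCDH8: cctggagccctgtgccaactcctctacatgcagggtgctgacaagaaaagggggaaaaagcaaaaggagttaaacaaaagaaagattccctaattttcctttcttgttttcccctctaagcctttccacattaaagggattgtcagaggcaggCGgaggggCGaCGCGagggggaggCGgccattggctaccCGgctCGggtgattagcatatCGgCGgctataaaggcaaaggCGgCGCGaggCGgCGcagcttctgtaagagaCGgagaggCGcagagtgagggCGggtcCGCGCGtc
DPP6: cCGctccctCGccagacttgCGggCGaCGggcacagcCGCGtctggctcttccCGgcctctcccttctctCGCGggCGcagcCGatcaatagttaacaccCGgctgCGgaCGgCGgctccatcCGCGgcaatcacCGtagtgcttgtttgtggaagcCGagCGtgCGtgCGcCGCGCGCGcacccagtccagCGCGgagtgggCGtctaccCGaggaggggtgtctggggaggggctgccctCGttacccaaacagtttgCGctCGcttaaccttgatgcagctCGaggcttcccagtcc
PCDH8 held 20 CG steps in 300 bases and DPP6 held 35, where the median of 22199 windows of protein-coding genes was 21 with quartiles of 7 and 31. The DPP6 window was therefore denser in CG steps than the upper quartile and the PCDH8 window near the median. The letters GGGCGG, a GC box searched on either strand, which itself contains a CG step, occurred in the PCDH8 window and not in the DPP6 window. They occurred in 56.3% of all windows and in 25 of 52 windows of members (48.1%).

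Of 203 loci of the adhesion genes, 140 were called in both libraries (69.0%, exact binomial 95% interval 62.1 to 75.3%), against 73.3% of all loci and 76.0% of loci that carry a gene (75.2 to 76.7%), the nearer background, since every one of the 203 carries a gene. In the CXCL12 library alone 33 were called (16.3%, against 14.6% of all loci and 12.9% of loci with a gene), and in the control library alone 30 (14.8%, against 12.2% and 11.1%). Such intervals cover the spread over loci and say nothing of variation between cultures. The loci found in 1 library were mostly small, with median lengths of 2600 bp in the CXCL12 library and 2500 bp in control. Over all single-library loci of the series the medians were alike, 2600 and 2400 bp. The median mean signal was 4.15 and 4.33, against 3.86 and 3.96 over all single-library loci. The regions of shared adhesion loci had median lengths of 4800 bp after CXCL12 and 5000 bp in control, with signals of 5.62 and 5.31. At 124 shared loci with 1 region in each library, the highest points lay a median of 256 bp apart, and in 62.9% they were within 500 bp, against 63.2% of all such loci.

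At the shared loci of the adhesion genes the signal was nearly the same after CXCL12 as in control. The log2 ratio of mean signal at the median locus, CXCL12 over control, was 0.03 (order-statistic 95% interval 0.00 to 0.09) with quartiles of −0.12 and 0.21, where all 21541 shared loci had a median of 0.04 and quartiles of −0.12 and 0.20. Of the 140 loci, 83 had the higher mean after CXCL12 and 57 in control (67 above and 73 below the median of all shared loci), and the ratios spanned −0.59 to 0.55. A 2-fold difference in mean signal was reached by 0 of 140 loci in either direction. Among all shared loci 0.116% were at least 2-fold higher after CXCL12 and 0.176% at least 2-fold lower, so a count of 0 of 140 is near the background. By the highest bin, 1 locus was 2-fold higher after CXCL12 (background 0.696%) and 0 were 2-fold lower (background 0.279%). That locus lies in SORCS3, a receptor of the sortilin family, at chr10:106729400-106732599, with highest bins of 14 after CXCL12 and 7 in control. At 48 of the 140 loci (34.3%) the mean and the highest bin differed in opposite directions, against 30.9% of all shared loci.

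**Figure D3:**
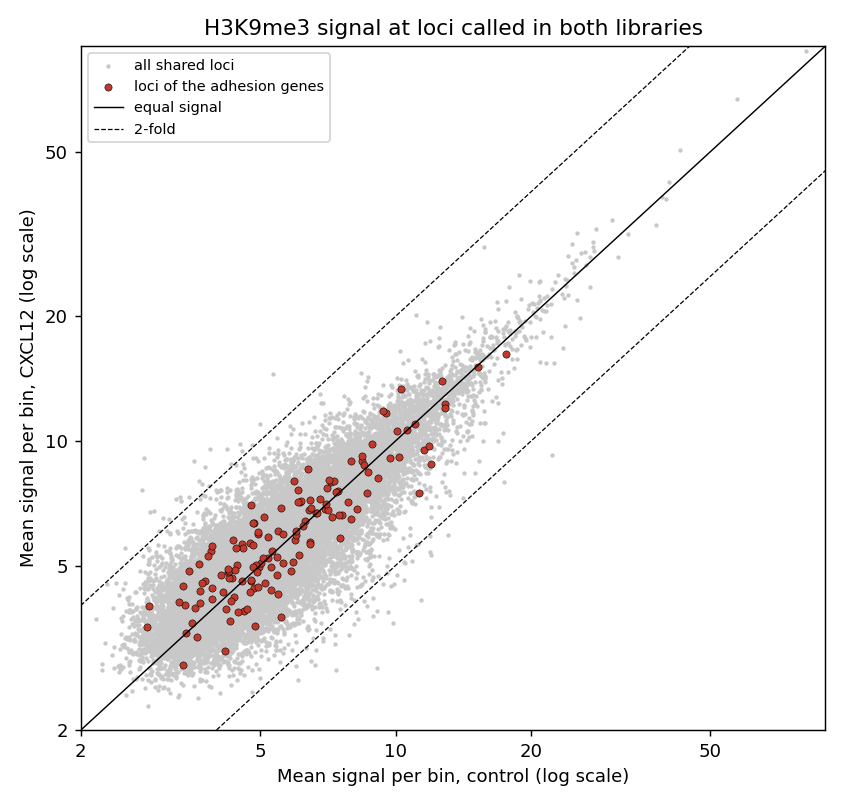
Mean H3K9me3 signal per bin after CXCL12 (y axis) against control (x axis), both on log scales, at 21541 shared loci (grey) and the 140 shared loci of the adhesion genes (red); the solid line marks equal signal and the dashed lines 2-fold. All 140 red points lie between the dashed lines, with log2 ratios from −0.59 to 0.55.

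Called length varied more than signal, as it did over all shared loci. The standard deviation of the log2 ratio was 0.54 for length and 0.24 for mean signal, against 0.54 and 0.27 over all shared loci. At least 2-fold longer after CXCL12 were 7 of 140 loci, against 5.55% of all shared loci, and at least 2-fold shorter were 6, against 2.85%. The longest ratios were at PCDH9, a protocadherin (4.0 kb after CXCL12 and 1.2 kb in control, log2 ratio of length 1.74), and at the SORCS3 locus named above (3.2 and 1.2 kb, 1.42). The shortest were in SDK1 (4.0 kb after CXCL12 and 12.6 kb in control, −1.66) and DLGAP2, a postsynaptic scaffold (2.4 and 7.4 kb, −1.62). The ratio of mean signal ran against the ratio of length. Across the 140 loci Spearman's rho between the 2 ratios was −0.54, and across all shared loci −0.62. Both ratios come from the same region calls, and the loci share 2 libraries, so the coefficient is a description. The part of called length in the signal ratios was not tested.

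**Figure D4:**
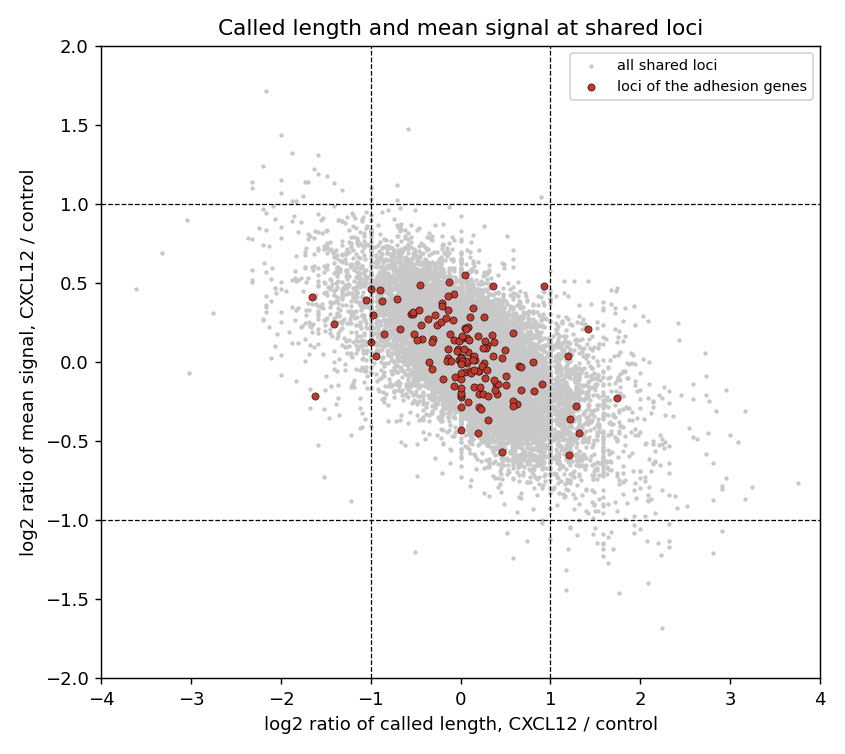
log2 ratio of mean signal (y axis) against log2 ratio of called length (x axis), both CXCL12 over control, at 21541 shared loci (grey) and the 140 shared loci of the adhesion genes (red); dashed lines mark 2-fold. Red points pass the dashed lines to the right (7 loci) and reach or pass them to the left (6 loci), and none passes them upward or downward, with rho −0.54 over the red points.

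Sidekicks are large immunoglobulin-domain proteins that bind their own kind and guide synaptic layers in the retina of chick and mouse. SDK1 had the most regions, 25 after CXCL12 and 23 in control, and the longest coverage, 341.6 and 355.0 kb, which was 27.9% and 30.4% of the length called over all adhesion genes. Over chr7:3912800-4327399, 571.7 to 986.3 kb from the start the authors used, 77.4% of the sequence was called after CXCL12 and 81.0% in control. The mean signal there was 10.9 and 10.6. This stretch, picked out after its values were seen, as were those of DPP6, CDH13 and SORCS2, held 18 loci. Its longest domain, chr7:4169000-4291799, measured 122.8 kb after CXCL12 and 122.4 kb in control, with signals of 15.1 and 15.2 and highest bins of 62 and 54. The next, chr7:4293600-4327399, had a signal of 12.3 after CXCL12 and 12.9 in control over 33.4 and 33.2 kb. The strong domains of SDK1 had nearly equal length and signal in both libraries, while its weaker loci spanned log2 ratios of −0.25 to 0.41. SDK2 had 2 regions in each library. The one upstream of the gene, where a promoter is annotated, had 11.7 after CXCL12 and 9.51 in control. The one inside had 8.79 after CXCL12 and 12 in control, with a log2 ratio of −0.45. Its highest bins had the opposite order, 43 after CXCL12 and 37 in control, over 6.2 and 5.4 kb.

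DPP6 and DPP10 are inactive relatives of a peptidase that join Kv4 potassium channels in neurons. DPP6 had 22 regions in each library, over 155.2 kb after CXCL12 and 146.8 kb in control, with a mean signal of 6.89 and 6.37. At 14 of its 16 shared loci the mean was higher after CXCL12, by small amounts: the median log2 ratio was 0.11 and the highest 0.40. Against the median of all shared loci 10 of the 16 were higher. Domains gathered in 2 stretches, at 318.0 to 421.2 kb and at 841.8 to 1109 kb from the first start. The first was 38.2% covered after CXCL12 and 37.0% in control with signals of 4.88 and 4.65, and the second 37.3% and 31.9% with 7.89 and 7.55. Within the second, a locus at chr7:154449400-154468399 had the highest bin of the gene, 79 after CXCL12 and 61 in control. DPP10 had 6 regions in each library, all at least 915.1 kb from the start the authors used. RefSeq lists 6 promoter windows for DPP10, and distances from other starts were not taken. Its strongest, chr2:116130000-116133999, was among the 5 with the highest signal of the adhesion genes, with 14.0 after CXCL12 and 12.7 in control.

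CSMD proteins carry CUB and sushi domains, and CSMD1 is known as an inhibitor of complement. CSMD1 showed the largest difference in count of all 40 genes, 18 regions after CXCL12 and 11 in control. Covered length was 70.6 kb after CXCL12 and 55.0 kb in control, and the mean signal was 5.16 and 5.13. Of its 16 loci, 10 were shared, 5 were called after CXCL12 and not in control, and 1 the other way round. At 3 of the shared loci a stretch with 1 region in control was called as 2 regions after CXCL12. Its loci chr8:3109000-3113799 (5.56 after CXCL12, 3.92 in control) and chr8:3104600-3108399 (5.43 and 3.89) had log2 ratios of 0.50 and 0.48, among the 6 largest of the adhesion genes. Another locus, chr8:4708800-4712999, went the other way with 5.84 after CXCL12 and 7.52 in control (−0.37). CSMD2 had 6 regions after CXCL12 and 8 in control, and CSMD3 had 1 and 2. Without CSMD1 the excess of regions after CXCL12 over the whole group was 2 instead of 9.

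Among the cadherins CDH13 (T-cadherin, which is anchored by a lipid and has no cytoplasmic tail) had 16 regions after CXCL12 and 13 in control. Its coverage was 90.8 kb after CXCL12 and 89.8 kb in control, with a mean signal of 5.44 and 4.92. Toward its far end, 1041 to 1145 kb from the start, 60.5% of the sequence was called after CXCL12 and 51.8% in control. Of 12 shared loci 8 were higher after CXCL12, with ratios from −0.43 to 0.48 and a median of 0.21, the highest median of the 11 genes with at least 5 shared loci. CDH4 (R-cadherin, of retina and brain) had 13 regions after CXCL12 and 10 in control, over 73.0 and 63.8 kb, and the signal was 8.66 and 8.96. It held the lowest ratio of the adhesion genes, −0.59 at chr20:60437200-60443199, where signal was 7.48 after CXCL12 and 11.2 in control. That locus was called over 6.0 kb after CXCL12 and over 2.6 kb in control, and its highest bins were 19 and 21. Downstream of CDH4, a locus beside MIR1257 with a CpG island, chr20:60519600-60521199, had 12 after CXCL12 and 12.9 in control. CDH4 also gave the strongest loci called after CXCL12 alone, chr20:60493000-60496599 with 9.30 and chr20:60065800-60068799 with 7.81.

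The remaining cadherins and the protocadherins had few regions. Their signals lay on both sides of the medians over all regions, 5.10 after CXCL12 and 5.06 in control. CDH12, a type II cadherin of brain, had 1 locus with 3.57 after CXCL12 and 4.87 in control. Its highest bins had the opposite order, 10 after CXCL12 and 8 in control, over 3.0 and 1.2 kb. Beside CDH5 (VE-cadherin, of endothelium) 1 downstream locus had 4.83 after CXCL12 and 4.94 in control. CDH17, of liver and intestine, had 1 region after CXCL12 and 2 in control. CDH23, which forms the tip links of hair cells with PCDH15, had 1 region after CXCL12 with 7.31 and 0 in control. That region also carries C10orf54 and an annotated promoter, and its highest point lies 380.9 kb from the CDH23 start. It therefore belongs as much to C10orf54. PCDH15 had 2 regions after CXCL12 and 3 in control, over 9.6 kb in each library, with signals of 6.27 and 6.01. PCDH9 had 3 regions after CXCL12 and 4 in control, with mean signals of 5.47 and 6.45. Its strongest locus, chr13:67680600-67682399, had 9.50 after CXCL12 and 11.6 in control. PCDH10 had 3 further regions beside the gene after CXCL12, upstream or downstream, with signals of 2.77 to 5.93. The strongest of these overlapped a control region that the authors' annotation gave to no adhesion gene, which happened at 2 loci in all. PCDH11X had 1 locus with 3.93 after CXCL12 and 4.20 in control.

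Contactins and CNTNAP proteins had scattered regions, with the highest gene means at CNTNAP2 and CNTN1. CNTNAP2, a partner of contactins on axons and among the longest human genes, had 8 regions after CXCL12 and 7 in control, from 393.4 to 2309 kb from its start. Its strongest locus, chr7:146199800-146210199, had 13.3 after CXCL12 and 10.3 in control (log2 ratio 0.38), while the median over its 5 shared loci was 0.00. CNTN1 had 1 locus with 6.82 after CXCL12 and 6.43 in control, and CNTN5 had 1 region after CXCL12 and 2 in control. CNTN3 had 1 region after CXCL12 (signal 3.55) and 0 in control, whereas CNTN4 had 0 after CXCL12 and 2 in control (4.44 and 4.06). CNTNAP5 had 1 locus with 3.36 after CXCL12 and 3.62 in control. The calls in CNTN3, CNTN4 and CNTN5 differed in both directions between the libraries.

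Neurexins, neuroligins and LRRTM proteins form the best known bridge across the synapse. NRXN3 had 3 regions after CXCL12 and 4 in control, and its strongest, chr14:79036400-79043199, was alike in both, with 7.54 after CXCL12 and 7.39 in control. NLGN1 had 1 region after CXCL12 and 3 in control, and at the locus called in both the signal was 5.26 and 3.83. The largest ratio of all adhesion loci, 0.55, lay downstream of LRRTM2 at chr5:138195600-138201399, where signal was 7 after CXCL12 and 4.77 in control over 5.6 and 5.4 kb. The highest bins there were 18 after CXCL12 and 13 in control. That locus also carries CTNNA1, which encodes the alpha-catenin that links cadherins to actin, so it belongs as much to that gene. LRRTM4 had 1 region in each library at different places, with 3.72 after CXCL12 and 3.26 in control.

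Sorting receptors of the SORCS family bind neurotrophin precursors and guide synaptic proteins. SORCS2 had 9 regions after CXCL12 and 10 in control and, next to SDK1, the widest domains of the group. Over chr4:7532000-7618399, 337.6 to 424.0 kb from its start, 98.1% of the sequence was called after CXCL12 and 93.8% in control, with a mean signal of 8.57 and 8.58. Its 2 loci there had log2 ratios of −0.01 and 0.00. At the other SORCS2 loci the ratios ranged from −0.26 to 0.11. SORCS3 had 4 regions in each library, with all 4 loci shared and the higher mean after CXCL12, by ratios of 0.02 to 0.24, of which 3 exceeded the median of all shared loci. SORCS1 had 3 regions after CXCL12 and 1 in control. LRP1B, a large receptor often deleted in tumours, had 2 regions after CXCL12, with signals of 4.97 and 2.73, and 0 in control.

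Scaffolds of the MAGI and DLGAP families anchor receptors beneath the synaptic and junctional membrane. MAGI3 had 12 regions after CXCL12 and 13 in control, over 54.2 and 55.6 kb. Signal was 5.76 after CXCL12 and 5.99 in control, and the median log2 ratio over 10 shared loci was −0.11, the lowest of the 11 genes with at least 5. DLGAP1 had 6 regions in each library with 5.02 after CXCL12 and 4.64 in control. MAGI1 had 4 in each library, and its 3 shared loci had ratios of 0.15 to 0.49. MAGI2 held loci in both directions, 0.46 at chr7:78796400-78797999 (5.04 after CXCL12 and 3.66 in control) and −0.57 at chr7:78648400-78650799 (3.76 and 5.58). These were short calls of at most 2.2 kb, with equal highest bins of 8 at the first and 13 at the other. DLGAP2 had 3 regions in each library, and DLGAP3 had 1 locus with 4.37 after CXCL12 and 5.30 in control. The highest bins of the DLGAP3 locus had the opposite order, 13 after CXCL12 and 10 in control, over 4.4 and 1.8 kb.

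**Figure D5:**
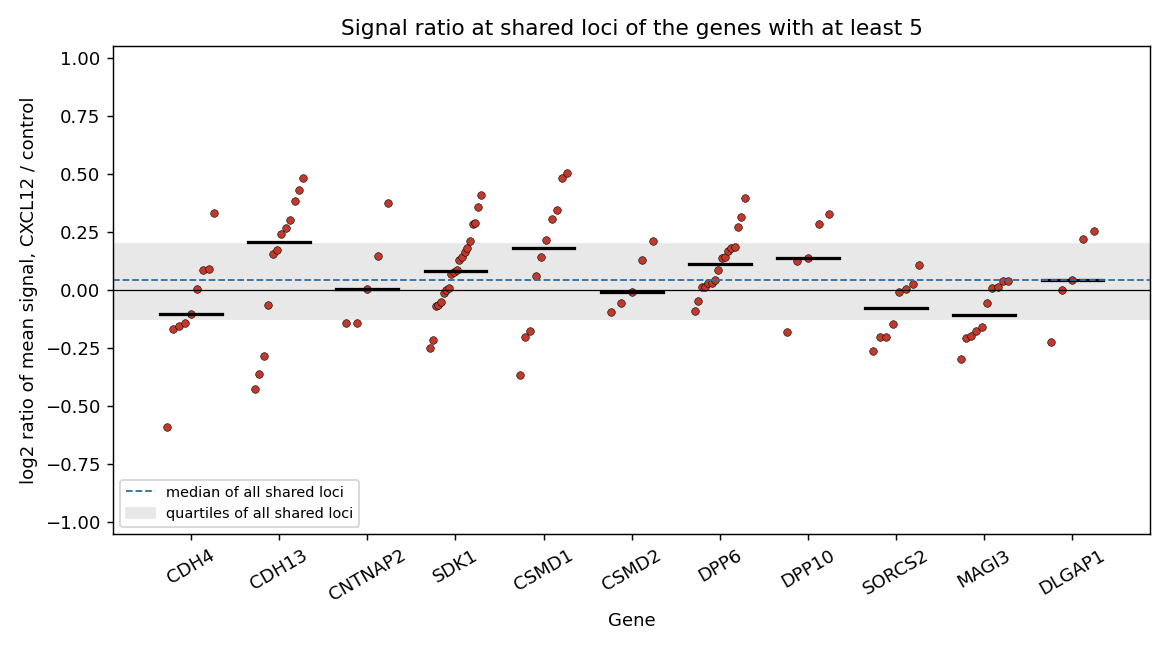
log2 ratio of mean signal, CXCL12 over control (y axis), at each shared locus (points) of the 11 genes with at least 5 shared loci, with the gene's median as a black bar; the dashed line is the median of all shared loci and the grey band their quartiles. Medians run from −0.11 (MAGI3) to 0.21 (CDH13), and each gene has points on both sides of 0.

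Gene by gene, the counts of regions differed by at most 7 between the libraries. More regions after CXCL12 were listed for 11 genes, fewer for 14 and as many for 15, and in 30 of the 40 genes the counts were within 1. However, 15 of the 40 had only 1 or 2 regions in all, where the counts have little room to differ. A region was called after CXCL12 only in 4 members and in control only in 3. No share over all genes was taken for these counts of genes, so they have no background and are descriptions. Among the 11 genes with at least 5 shared loci, the median log2 ratio was above 0 in 7, or in 6 once centred on the median of all shared loci. DPP10, CSMD1 and SDK1 had medians of 0.14, 0.18 and 0.08. Centring moved the ratios by 0.04 and put the median of the adhesion loci at −0.01.

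Other genes of the same pathways, taken from a list of cadherin partners and synaptic adhesion genes, are given beside them. There was no test and no correction for gene length. A region was listed for 31 of 66 (47.0%), against 30.0% of all protein-coding genes, and each of the 31 had one in both libraries, with more regions after CXCL12 for 7, fewer for 8 and equal counts for 16. ASTN2, which acts in neuronal migration, had the most, with 12 regions after CXCL12 and 11 in control. The postsynaptic scaffold SHANK2 had 10 after CXCL12 and 13 in control, with a signal of 8.88 and 8.66. DSCAM, an adhesion molecule of neurite self-avoidance, had 10 after CXCL12 and 11 in control, the neuronal alpha-catenin CTNNA2 had 8 and 9, and the scaffold DLG2 had 7 and 9. The median log2 ratio over 90 shared loci of this list was 0.01.

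Clustered protocadherins, relatives of PCDH8 to PCDH10 that lie in a tandem array, had an annotated promoter in most of their regions. Shares of regions with a promoter were not corrected for gene length or for the spacing of promoters. A promoter was annotated in 87.5% of clustered protocadherin regions after CXCL12 and in 95% in control, against 2.13% and 3.35% for the adhesion genes described here. Their mean signal was 10.3 after CXCL12 and 9.83 in control, and 82.4% of their 34 loci were shared. Voltage-gated and calcium release channel genes, which are long neuronal or muscle genes for the most part, had a promoter in 7.86% of regions after CXCL12 and 10.2% in control, and 68.0% of their loci were shared. For neurotransmitter receptor genes these values were 9.09%, 9.41% and 68.4%. Median log2 ratios were 0.03 at the adhesion genes, −0.05 at the clustered protocadherins, 0.01 at the channels and 0.10 at the receptors, differences for which no test can be given with 1 library per group.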

How the data were processed

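H3K9me3 ChIP-seq of Jurkat cells was grouped by the treatment labels into CXCL12, control and input, with 1 library each, and the input was not used here. Per the submitters' processing notes the tools were BWA 0.7.12 and SICER 1.1 and the build was hg19; no settings are stated. The authors deposited 1 table of regions for both libraries, and per the file headers these give each region's signal as an average over bins and as a peak value, that of the highest bin. How the signal was scaled is not given, and the depth is unknown. Calls are made in 200 bp steps. A deeper library could give longer calls and, if the signal was not scaled for depth, a higher signal. With 1 library per group this cannot be told apart from the treatment.

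Regions of either library sharing at least 1 bp were chained into loci over the whole table. The signal of a shared locus was the mean over all its bins, and its ratio was log2 of CXCL12 over control with no pseudocount and a 2-fold rule. Gene names and positions are the authors', so a named locus can lie beside its gene. Another gene was also listed for 14 of the member regions after CXCL12 and 10 in control. A RefSeq gene table served to count protein-coding genes, and RefSeq promoter windows are those of GRCh38.p14. Shares carry exact Clopper-Pearson 95% intervals and medians order-statistic 95% intervals. The chaining and ratios were tested on simulated data. Python 3.11.15, pandas 2.3.3, NumPy 2.4.6, SciPy 1.17.1 and matplotlib 3.10.9 were used. The named members were those with the most regions per family (up to 3), the 6 largest and 6 smallest signal ratios, the 5 longest and 5 shortest length ratios, the 5 highest signals, the 5 longest loci, the 5 strongest loci of each single library and the 5 strongest loci with a promoter or CpG island; further members are named to account for the rest, except 1 that is counted in the totals and not reported here. Members and lists were chosen with earlier results of these data known. Alternatives were a 1.5-fold rule, centred ratios, the highest bin, a pseudocount of 1, an overlap of at least 50% of each region, only signals at or above the median, only in-gene regions, and loci with lengths within 1.2-fold.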

Additional observations from a re-analysis of the deposited data

How the results depend on the processing

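Of 48 values recomputed, 37 stayed within bounds (a count within 1.5 times the value reported, the median log2 ratio within its 95% interval) and 11 did not. Many of the 37 were counts of 2-fold higher or lower loci that stayed at 0. The log2 ratios spanned only −0.59 to 0.55, so a pseudocount, centring or a subset of the loci could not have raised those counts. Among the 37 were 27 genes with a region in place of 40, with regions at or above the median signal of their library, and a difference in regions of 6 in place of 9, with in-gene regions. With that limit on signal, the adhesion genes kept 192 of 367 regions and 72 of 140 shared loci. With ratios centred on the median of all shared loci, their median log2 ratio was −0.0107, below 0 where the value reported, 0.03, is above it. The highest bin put 1 locus at least 2-fold higher after CXCL12, where mean signal put 0. A 1.5-fold rule gave 1 lower locus by mean signal, 18 longer and 13 shorter loci. Where regions had to overlap by at least 50% of each, 0 loci were 2-fold longer and 2 were 2-fold shorter; this overlap removes by its construction most pairs of very unequal length. Chosen after seeing the data were the values without SDK1, which gave 120 shared loci with a median of 0.03, and the difference in regions between CXCL12 and control. That difference was 9 in all, 4 with regions at or above the median signal and 2 without CSMD1. For the other moved values the cause was not tested.

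No paired analysis was possible because each group has 1 library, and for the same reason none was left out in turn. Depth is unknown, and a locus called in 1 library has no listed signal in the other.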
